A study of Mus musculus with 32 samples.

Results

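Expression of 6 STAT transcription factors and 3 Janus kinases was followed through the response of mouse macrophages to lipopolysaccharide (LPS): Stat2, Stat3, Stat4, Stat5a, Stat5b, Stat6, Jak1, Jak2 and Tyk2. These 9 genes were taken by symbol from the 25067 mouse genes in the count table, after keeping for each gene the RefSeq transcript with the highest mean count. All 9 were among the 11186 genes that passed the filter on low values, a mean above 1 RPKM (reads scaled to transcript length and library size) in at least 1 group. Stat4 passed only through its levels up to 5 h of LPS, since its mean at 18 h was 0.518 RPKM in wild-type and 0.662 RPKM in Nur77-deficient cells. The cells were bone marrow-derived macrophages (BMDMs) from male mice of the C57Bl6/J strain, aged 6 to 12 weeks, grown for 7 days with 15% medium conditioned by L929 cells, a source of the growth factor M-CSF. BMDM-WT came from wild-type littermates and BMDM-Nur77-KO from mice in which a loxP-flanked Nr4a1, the gene of the nuclear receptor Nur77, had been deleted in the whole body by a CMV-driven Cre that was afterwards bred out. The deletion was thus present in every cell type of the donors and not in macrophages alone. Each genotype was treated with LPS at 100 ng/ml for 0, 1, 5 or 18 h, which gave 8 groups of 4 libraries and 32 libraries in all. Cells were plated in 4 replicate wells and the number of donor animals was not stated, so the p-values given here measure the spread between these libraries, which may be technical.

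Janus kinases sit on the inner side of cytokine receptors and phosphorylate them, and each other, when a cytokine brings the receptor chains together. STAT proteins dock on the phosphorylated receptor, are phosphorylated in turn, pair up and enter the nucleus, where most pairs bind a palindrome called the GAS element. STAT2 is the exception: with IRF9 in the complex made by type I interferon it binds the interferon-stimulated response element (ISRE). In macrophages LPS does not engage a Janus kinase directly, and the pathway is reached through the interferon-beta, IL-6 and IL-10 that the cells release, with SOCS proteins as the feedback inhibitors.

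The libraries held 8742362 to 15780926 counted tags (median 11847140). Nr4a1 itself was lower in the knockout, at 5.25 ± 1.19 against 19.7 ± 4.35 CPM (tags relative to the scaled library size) before LPS and 191 ± 39.9 against 437 ± 60.1 CPM at 1 h (mean ± SD, n = 4 each), and was below 1.1 CPM in every library from 5 h on. All 7 macrophage markers checked were above 1 CPM in every library, with a sum of 5432 to 9424 CPM. T and NK cell markers summed to 8.79 to 22.7 CPM, of which Cd4 gave 8.69 to 20.8 CPM, and Cd3d, Cd3e and Cd3g never exceeded 5 counts. In 3 groups a library stood apart in how far its genes lay from the group mean with the GC content of the transcript: the slope was -0.551 log2 units per 10 points of GC in BMDM-Nur77-KO 5 h replicate 1, -0.39 in BMDM-Nur77-KO 18 h replicate 4 and -0.274 in BMDM-WT 18 h replicate 3, each the steepest of its group. Measured against the same group mean, BMDM-Nur77-KO 5 h replicates 3 and 4 had slopes of 0.257 and 0.298, and no other library exceeded 0.197 in size. Genes rich in GC were low in the first 3 of these libraries and genes poor in GC were high. The members' transcripts ranged from 44.3% GC in Jak2 to 57% in Tyk2.

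Promoter windows of the 9 genes were read from RefSeq (build GRCm38.p6), 250 bases before and 50 bases from each start site, to see which known response elements stand next to genes that LPS moved. All 9 genes matched and gave 12 of the 32851 windows in the table. Both strands were searched for TTCNNNGAA (GAS), TTC and GAA parted by any 4 bases (GAS with a longer spacer), GAAA and GAAA parted by any 2 bases (ISRE core), GGG and TTTCC parted by any 2 bases (an NF-kB site), TGANTCA (AP-1) and AAAGGTCA (the NBRE, to which Nur77 binds as a monomer). Of all windows, 8.3%, 6.95%, 3.44%, 1.63%, 7.81% and 1.51%, in that order, held at least 1 match. The 4 windows below hold matches next to the start of the transcript counted here, with the matched letters in capitals and the strand that of the gene.
Stat2, chr10:128270248-128270547, plus strand: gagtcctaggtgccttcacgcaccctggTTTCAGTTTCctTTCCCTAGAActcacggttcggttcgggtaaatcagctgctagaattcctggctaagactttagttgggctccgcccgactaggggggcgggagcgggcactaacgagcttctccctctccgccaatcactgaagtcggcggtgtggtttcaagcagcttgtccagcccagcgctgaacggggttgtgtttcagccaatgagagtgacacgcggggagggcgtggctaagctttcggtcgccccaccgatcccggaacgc
Stat4, chr1:52007990-52008289, plus strand: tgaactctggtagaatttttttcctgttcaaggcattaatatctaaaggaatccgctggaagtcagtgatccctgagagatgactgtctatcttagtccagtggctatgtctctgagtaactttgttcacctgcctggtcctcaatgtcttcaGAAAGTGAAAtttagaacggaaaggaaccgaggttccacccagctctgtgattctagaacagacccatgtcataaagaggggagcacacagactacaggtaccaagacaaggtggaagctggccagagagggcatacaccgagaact
Stat5b, chr11:100822521-100822820, minus strand: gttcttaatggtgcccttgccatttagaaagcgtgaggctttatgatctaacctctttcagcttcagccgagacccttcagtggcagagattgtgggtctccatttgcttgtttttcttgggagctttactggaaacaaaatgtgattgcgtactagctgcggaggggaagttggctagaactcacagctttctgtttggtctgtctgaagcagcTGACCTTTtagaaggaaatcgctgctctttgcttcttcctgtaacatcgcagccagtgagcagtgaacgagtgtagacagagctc
Stat6, chr10:127642736-127643035, plus strand: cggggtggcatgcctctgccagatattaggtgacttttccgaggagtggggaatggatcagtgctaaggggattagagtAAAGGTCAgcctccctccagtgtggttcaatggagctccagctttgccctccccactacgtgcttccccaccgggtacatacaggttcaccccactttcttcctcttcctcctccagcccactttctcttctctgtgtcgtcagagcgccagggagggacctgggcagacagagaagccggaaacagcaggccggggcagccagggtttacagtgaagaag
The Stat2 window held an ISRE core at -222 to -213 from the start site and a GAS element with the longer spacer at -210 to -201, and Stat4 held an ISRE core at -97 to -88. An NBRE stood at -35 to -28 in Stat5b and at -171 to -164 in Stat6, and a further one at -44 to -37 in the window of a Stat5a start site that lies 828 bases from that of the counted transcript. None of these letters occurred in the windows of Stat3, Jak1, Jak2 and Tyk2, which says nothing of elements farther away.

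Per transcript length, Jak1 and Stat6 were the most abundant of the 9 genes before LPS. Jak1, shared by most cytokine receptors of this kind, stood at 59.4 RPKM (range 56.1 to 62.1) and Stat6, the factor activated by IL-4 and IL-13, at 54.1 RPKM (50.5 to 57.2) in BMDM-WT, and the libraries of these 2 genes overlapped. Stat3 followed at 31.6, Stat2 at 19.9 and Tyk2 at 11.7 RPKM, each apart from its neighbours. Stat5b (9.22 RPKM) and Jak2 (8.18 RPKM) overlapped, Stat5a was at 5.06 RPKM, and Stat4, best known from lymphocytes, was last at 1.54 RPKM. After 5 h of LPS the order had changed: Jak2 led with 268 RPKM, ahead of Stat3 (214), Stat2 (177) and Jak1 (125), and none of these neighbours overlapped in BMDM-WT. At 18 h Stat2 was first with 299 RPKM, while Stat3 (101), Jak1 (90.4) and Jak2 (84.1) overlapped from one to the next. Stat4 stayed last in all 8 groups. In BMDM-Nur77-KO the same 4 genes led at 5 h and 18 h, with Jak2 at 316 RPKM and 151 RPKM. The level of Stat3 rests on the length of the counted transcript, 2927 bases; with the longest annotated one, 6042 bases, it would be 15.3 RPKM before LPS and 104 RPKM at 5 h in BMDM-WT.

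**Figure D1:**
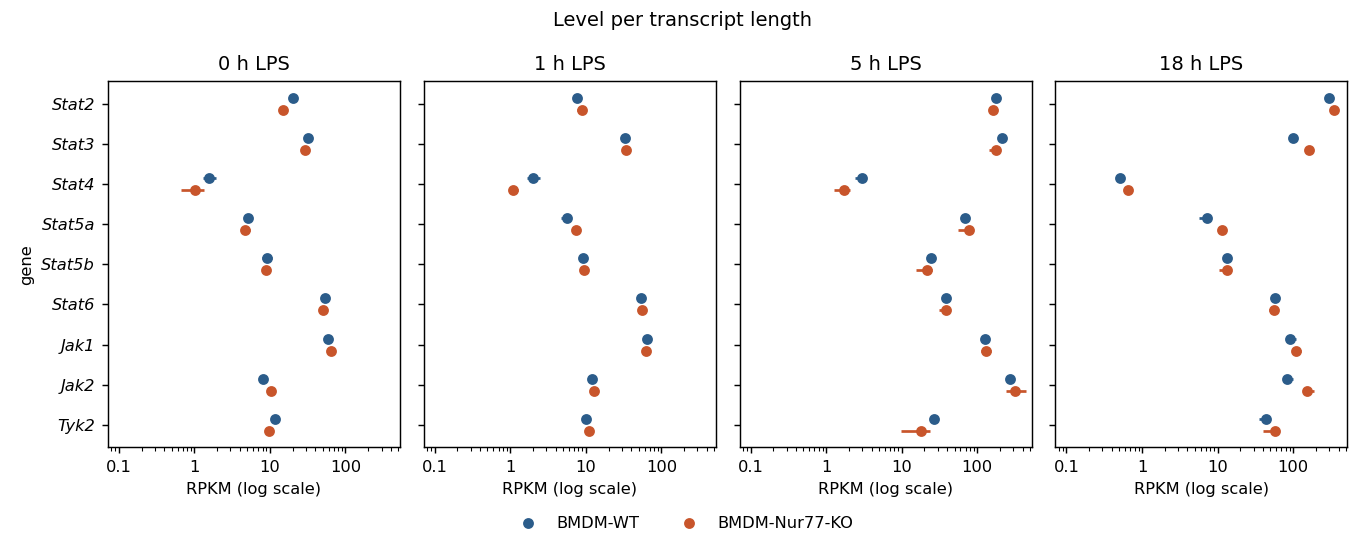
Level of the 9 genes per transcript length, in RPKM on a log axis, at 0, 1, 5 and 18 h of LPS; points are means of 4 libraries, lines run from the lowest to the highest library, blue is BMDM-WT and orange BMDM-Nur77-KO. Jak1 and Stat6 lead at 0 h, Jak2 (268 RPKM in BMDM-WT) at 5 h and Stat2 (299 RPKM) at 18 h, and Stat4 is lowest throughout.

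LPS raised most of the pathway's kinases and factors by 5 h. Of the 9 genes, 8 rose and 1, Stat6, fell at 5 h in both genotypes (edgeR quasi-likelihood test, Benjamini-Hochberg adjusted p below 0.05); of all genes tested, 70.1% were called in BMDM-WT (30.1% higher, 40.1% lower) and 71.4% in BMDM-Nur77-KO (32.2% higher, 39.3% lower). The median log2 fold change of the 9 was 1.40 in BMDM-WT and 1.30 in BMDM-Nur77-KO, beside -0.14 and -0.12 over all genes. At 1 h only 2 genes had been called in each genotype, Stat2 and Jak2 in BMDM-WT (20.3% of all genes were called, 10.1% higher and 10.2% lower) and Stat2 and Stat5a in BMDM-Nur77-KO (12.3% of all genes, 6.9% higher and 5.39% lower). At 18 h 7 of the 9 were still higher than before LPS in each genotype, Stat4 was lower and Stat6 did not pass, beside 66.4% of all genes called in BMDM-WT (32.4% higher, 34% lower) and 69.5% in BMDM-Nur77-KO (33.9% higher, 35.7% lower). The medians at 18 h were 0.61 in BMDM-WT and 1.26 in BMDM-Nur77-KO, with -0.00 and -0.02 over all genes. From 5 h to 18 h all 9 were called in BMDM-WT, with Stat2, Stat6 and Tyk2 higher and the other 6 lower, and 8 in BMDM-Nur77-KO, where Stat3 did not pass. Over these hours 69.4% of all genes were called in BMDM-WT (36.1% higher, 33.4% lower) and 69.3% in BMDM-Nur77-KO (35.2% higher, 34.2% lower).

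**Figure D2:**
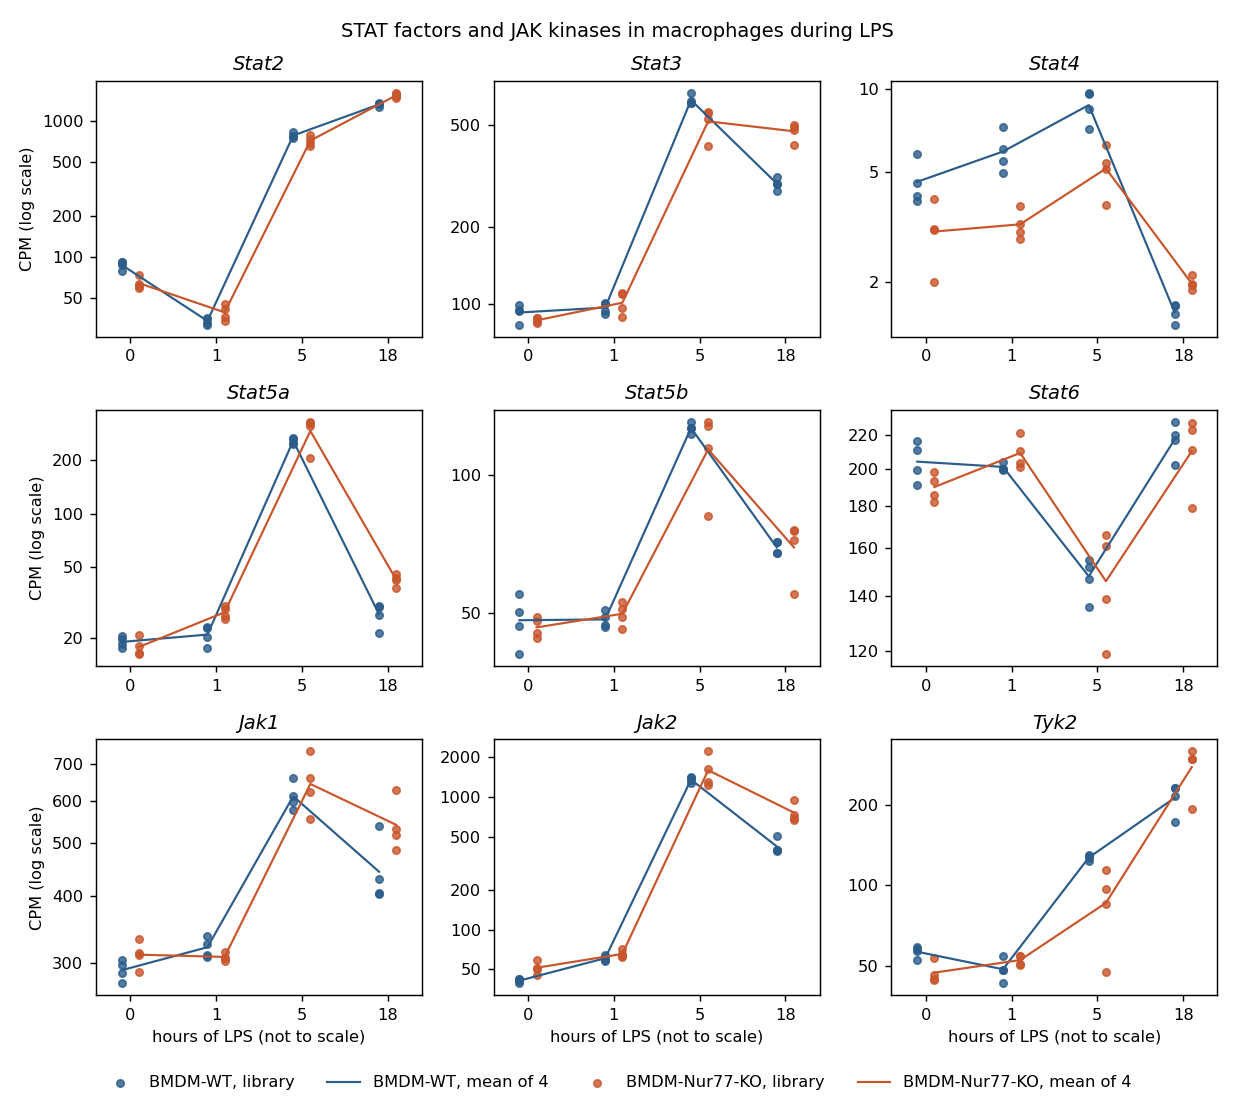
CPM of each gene (log axes, one scale per panel) against hours of LPS, which are spaced evenly and not to scale; points are libraries and lines join the means of 4. Jak2 and Stat5a peak at 5 h, Stat2 and Tyk2 are highest at 18 h, Stat6 dips at 5 h, and at 18 h all 4 orange points of Stat3, Stat5a and Jak2 lie above the blue ones.

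**Figure D3:**
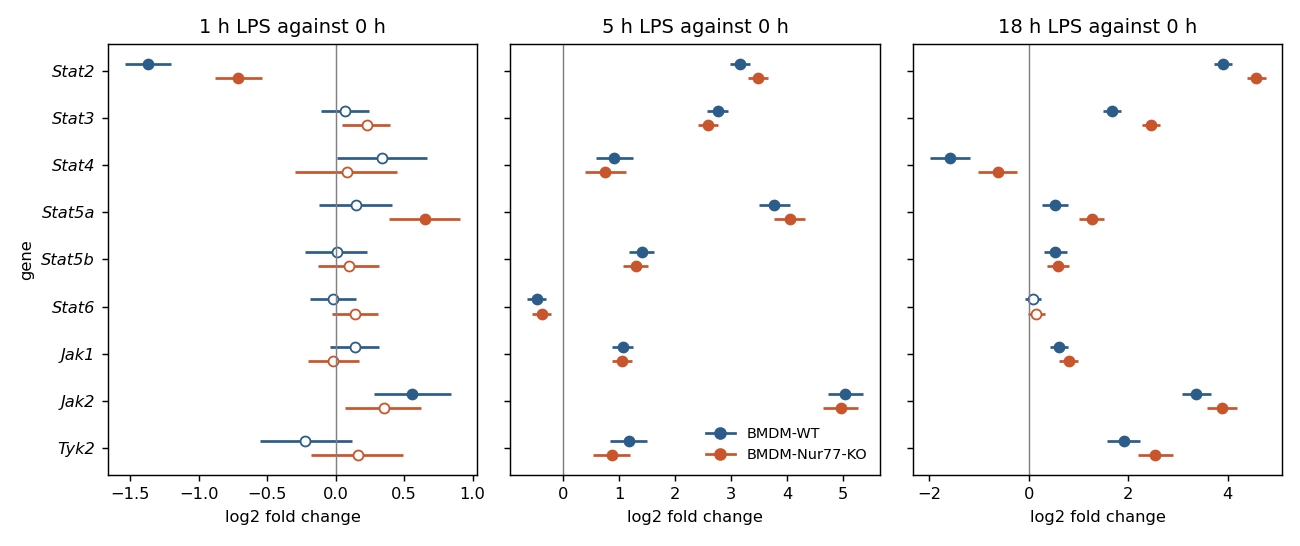
Log2 fold change of each gene at 1, 5 and 18 h of LPS against 0 h in BMDM-WT (blue) and BMDM-Nur77-KO (orange), with 95% intervals as lines; filled points passed an adjusted p of 0.05 and open points did not. At 5 h 8 genes lie to the right of 0 and Stat6 to the left in both genotypes, with Jak2 near 5 log2 units.

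Fewer of the 9 genes differed between the genotypes. Before LPS 2 genes, Stat2 and Stat4, were lower in BMDM-Nur77-KO, beside 12.7% of all genes called (6.34% lower). At 1 h Stat4 was lower and Stat5a higher, beside 6.53% of all genes (3.06% lower, 3.48% higher). At 5 h 3 genes, Stat3, Stat4 and Tyk2, were lower, beside 24.4% of all genes (10.7% lower). At 18 h 5 genes, Stat2, Stat3, Stat5a, Jak1 and Jak2, were higher and none lower, beside 21.7% of all genes (11.7% higher), and the median log2 difference of the 9 was 0.35, beside -0.01 over all genes. No difference reached a log2 value of 1 in either direction. The response to LPS itself, tested as the interaction of genotype and time, differed at 1 h for Stat2 (0.0715% of all genes, 0.0447% on the higher side) and at 18 h for Stat2, Stat3, Stat4 and Stat5a (9.43% of all genes, 5.36% on the higher side). At 5 h it differed for none of the 9 in edgeR or in DESeq2 (3.12% of all genes in edgeR); 1 gene, Stat2, had an unadjusted p below 0.05, with a difference of 0.32 ± 0.11 (SE) and an adjusted p of 0.13. When the 5 h groups were fitted on their own 8 libraries, none of the 9 passed in BMDM-Nur77-KO against BMDM-WT (3 at an unadjusted p below 0.05) and 3.62% of all genes did, so the 3 calls at 5 h depend on fitting all 8 groups together.

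**Figure D4:**
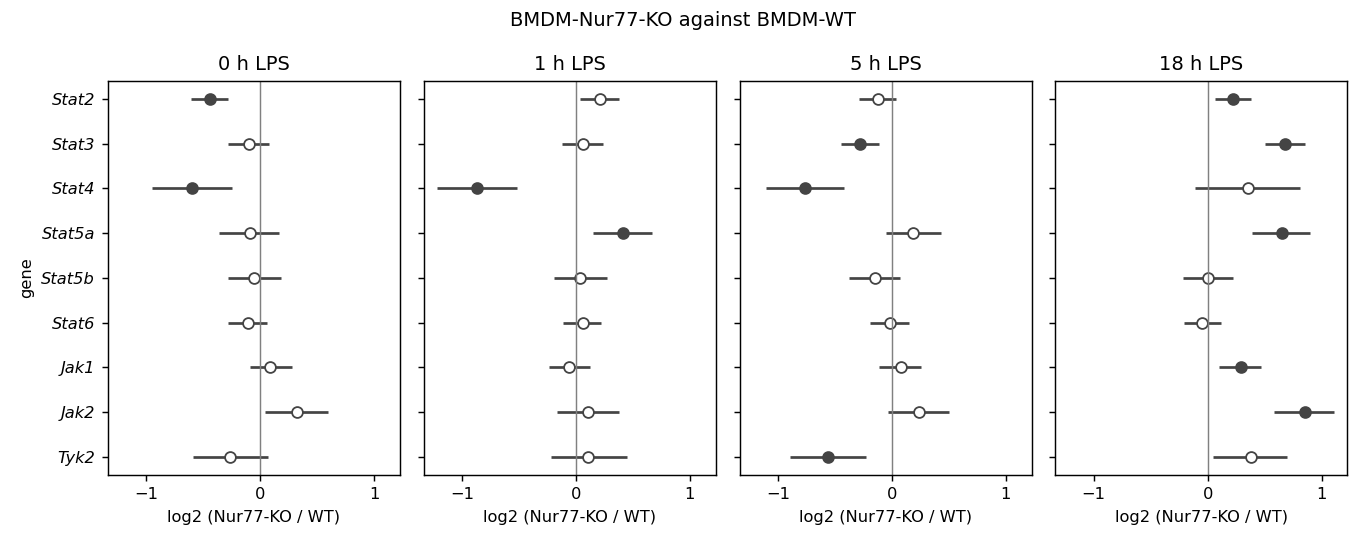
Log2 difference of BMDM-Nur77-KO from BMDM-WT for the 9 genes at 0, 1, 5 and 18 h of LPS, with 95% intervals as lines; filled points passed an adjusted p of 0.05. Stat4 lies left of 0 up to 5 h, and at 18 h Stat3 (0.68), Stat5a (0.65) and Jak2 (0.85) lie farthest to the right.

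Jak2, the kinase of the receptors for interferon-gamma, GM-CSF and the IL-12 family, had the largest LPS response of the 9 at 5 h. In BMDM-WT it stood at 40.6, 42.6, 42.2 and 39.2 CPM before LPS, at 59.2, 61.7, 57.6 and 64.6 CPM after 1 h, at 1336, 1266, 1376 and 1415 CPM after 5 h and at 389, 399, 510 and 395 CPM after 18 h. No 2 of these times overlapped. The libraries of BMDM-Nur77-KO gave 58.7, 51.3, 50.4 and 45.6 CPM, then 62, 63.3, 71.5 and 65 CPM, then 2214, 1615, 1302 and 1222 CPM, and 695, 668, 726 and 953 CPM at 18 h. The 5 h libraries of the knockout spread far more widely than those of BMDM-WT, with replicate 1 highest. Jak2 was 32.7-fold higher at 5 h than at 0 h in BMDM-WT (log2 5.03 ± 0.15 SE, adjusted p = 6.4e-23) and 30.9-fold higher in BMDM-Nur77-KO (4.95 ± 0.15, 9.5e-23). Its early rise at 1 h was 1.48-fold in BMDM-WT (0.56 ± 0.13, 0.0024), and the difference in the knockout was 0.35 ± 0.13 with an adjusted p of 0.098, which became 0.0053 when only those 8 libraries were fitted and 4.0e-05 with the GC trend removed. At 18 h Jak2 had come down 3.19-fold from 5 h in BMDM-WT and 2.09-fold in BMDM-Nur77-KO. The knockout was then 1.8-fold above the wild type (0.85 ± 0.13, 8.8e-06), with its lowest library above the highest of BMDM-WT, and the adjusted p stayed at or below 0.0017 in the alternative fits. Before LPS Jak2 was also higher in all 4 knockout libraries, but the adjusted p was 0.12 (0.32 ± 0.13), 0.012 with only these 8 libraries and 0.0025 without the 3 libraries that stood apart by GC trend. None of those 3 is a 0 h library, so leaving them out changed the spread estimated over all groups. Calls over all genes at 0 h then went from 1417 to 3285. The interaction at 18 h missed the threshold (0.52 ± 0.19, adjusted p = 0.075) and passed without BMDM-WT 18 h replicate 3 (0.029), with the GC trend removed (0.59, 4.0e-05) and without the 3 libraries that stood apart by it (0.50, 0.0018). At 5 h the difference between genotypes was 0.24 (interval -0.03 to 0.50, adjusted p = 0.17), and without BMDM-Nur77-KO 5 h replicate 4 the adjusted p was 0.036. With the GC trend of each library removed it was 0.05 (0.64).

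Jak1, which most cytokine receptors of this pathway share, moved less. Its libraries in BMDM-WT read 287, 275, 304 and 298 CPM before LPS, 326, 308, 311 and 337 CPM at 1 h, 576, 612, 660 and 597 CPM at 5 h and 404, 429, 538 and 402 CPM at 18 h. Those of BMDM-Nur77-KO read 332, 313, 311 and 289 CPM, 306, 315, 303 and 307 CPM, 741, 660, 622 and 554 CPM, and 486, 518, 531 and 628 CPM. Both genotypes followed a course up to 5 h and down again. Jak1 rose 2.1-fold by 5 h in BMDM-WT (log2 1.07 ± 0.09, adjusted p = 4.9e-12) and 2.07-fold in BMDM-Nur77-KO (1.05 ± 0.09, 7.4e-12). It fell from 5 h to 18 h by 0.46 ± 0.09 on the log2 scale in BMDM-WT (3.2e-05) and by 0.25 ± 0.09 in the knockout (0.012), the latter not passing without BMDM-Nur77-KO 5 h replicate 1 or 18 h replicate 1 (adjusted p up to 0.069) or with only those 8 libraries (0.13). At 18 h the knockout was 1.22-fold higher (0.29 ± 0.09, 0.018), while the libraries overlapped, BMDM-WT replicate 3 lying at 538 CPM. This call was lost without BMDM-Nur77-KO 18 h replicate 4 or BMDM-WT 18 h replicate 1, 2 or 4 (adjusted p up to 0.11) and with only the 18 h libraries (0.16). It passed with the GC trend removed (0.29, 9.6e-04) and without the 3 libraries that stood apart by it (0.31, 5.3e-04).

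Tyk2, the partner of Jak1 at the type I interferon and IL-10 receptors, rose later and was highest at 18 h. In BMDM-WT the libraries gave 57.8, 52.7, 57.1 and 58.9 CPM before LPS, 54.8, 48.4, 48.4 and 43.1 CPM at 1 h, 123, 127, 129 and 130 CPM at 5 h and 215, 231, 172 and 231 CPM at 18 h. Those of BMDM-Nur77-KO gave 44.8, 46.3, 44.4 and 53.7 CPM, 54.8, 50.8, 54.7 and 50.7 CPM, 47.6, 85.5, 97.1 and 114 CPM, and 296, 317, 297 and 192 CPM. At 5 h every knockout library lay below every wild-type library, and BMDM-Nur77-KO 5 h replicate 1 was within the range of the 0 h libraries. Tyk2 rose 2.25-fold by 5 h in BMDM-WT (log2 1.17 ± 0.16, adjusted p = 1.6e-07) and 1.82-fold in BMDM-Nur77-KO (0.87 ± 0.16, 2.3e-05), and from 5 h to 18 h by a further 1.67-fold and 3.19-fold. At 5 h the knockout was 1.48-fold lower (log2 -0.56 ± 0.16, adjusted p = 0.012). With the GC trend of each library removed the difference was -0.40 (2.6e-04), without the 3 libraries that stood apart by it -0.36 (0.0013), and with only the 5 h libraries it did not pass (-0.57, adjusted p = 0.18). At 18 h the knockout was at 276 ± 56.8 against 212 ± 27.8 CPM, a difference of 0.38 ± 0.16 with an adjusted p of 0.087. It passed without BMDM-Nur77-KO 18 h replicate 4 (0.013), with the GC trend removed (0.48, 4.7e-06) and without the 3 libraries that stood apart by it (0.43, 1.4e-04). The interaction at 18 h behaved likewise: 0.63 ± 0.22 with an adjusted p of 0.074, 0.013 without that library, 0.034 with only the 0 h and 18 h libraries and 2.7e-04 with the GC trend removed (0.56). Before LPS the difference was -0.26 ± 0.16 (0.31), and with only the 0 h libraries it passed (-0.24, 0.027), as it did without the 3 libraries that stood apart by GC trend (-0.26, 0.012). None of these 3 is a 0 h library, so leaving them out changed the spread estimated over all groups and not the libraries compared. An annotated antisense gene, 1700084C06Rik, overlaps the exons of Tyk2 by 554 bases, and whether the counting used strand was not stated.

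**Figure D5:**
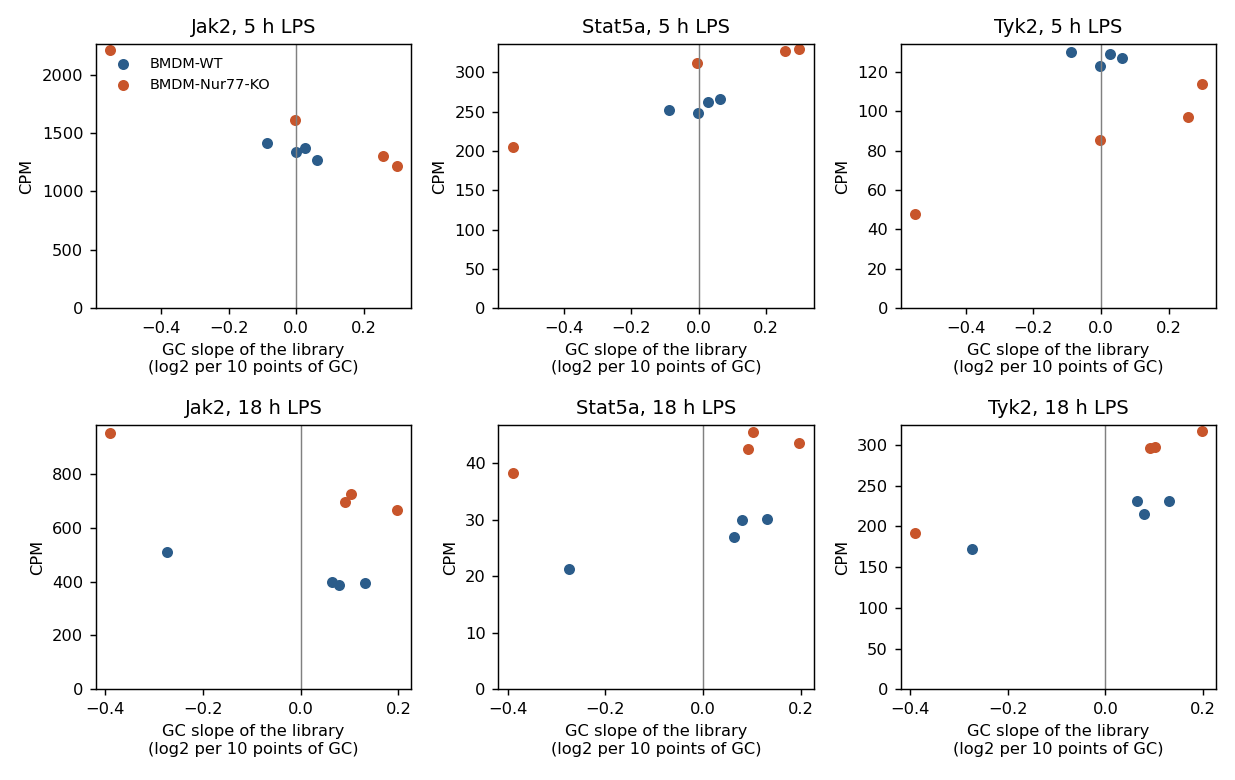
CPM of Jak2, Stat5a and Tyk2 at 5 h (top) and 18 h (bottom) against the GC slope of each library, the log2 change of a gene relative to its group mean per 10 points of transcript GC content; each point is a library, blue BMDM-WT and orange BMDM-Nur77-KO. The library at -0.551 has the highest Jak2 (2214 CPM) and the lowest Stat5a and Tyk2 of the 5 h libraries, and at 18 h the orange points of Jak2 and Stat5a lie above all blue ones.

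Stat2, the interferon factor that works with IRF9, fell first and then rose, to the highest level of the 9 at 18 h. The BMDM-WT libraries gave 91.2, 86.9, 92.6 and 79.5 CPM before LPS, 33.1, 35.6, 31.7 and 35.4 CPM at 1 h, 768, 772, 752 and 821 CPM at 5 h and 1332, 1329, 1253 and 1345 CPM at 18 h. In BMDM-Nur77-KO they gave 63, 61.8, 59 and 74 CPM, 36.6, 34, 45 and 41.4 CPM, 788, 688, 649 and 731 CPM, and 1512, 1604, 1460 and 1557 CPM. The genotypes did not overlap before LPS, where the wild type was higher, nor at 18 h, where the knockout was. Within 1 h Stat2 fell 2.58-fold in BMDM-WT (log2 -1.37 ± 0.08, adjusted p = 1.7e-14) and 1.64-fold in BMDM-Nur77-KO (-0.71 ± 0.08, 4.5e-08). By 18 h it had risen 15-fold over 0 h in BMDM-WT (3.91 ± 0.09, 1.0e-25) and 23.8-fold in BMDM-Nur77-KO (4.57 ± 0.09, 3.9e-27). Before LPS the knockout was 1.36-fold lower (-0.44 ± 0.08, 2.8e-04), in the alternative fits with an adjusted p of 0.0033 at most. The response at 18 h was larger in the knockout by 0.66 ± 0.11 (interaction, 1.2e-04), which combines the lower start with a difference at 18 h of 0.22 ± 0.08 (1.17-fold, adjusted p = 0.04). That last call was lost without any of 7 of the 8 libraries at 18 h, all but BMDM-Nur77-KO replicate 3 (adjusted p up to 0.094), with only the 18 h libraries (0.074) and without the 3 libraries that stood apart by GC trend (0.19, 0.076). The smaller fall at 1 h in the knockout (interaction 0.65 ± 0.12, 0.015) did not pass without replicate 3 of any of the 4 groups at 0 and 1 h or without BMDM-Nur77-KO 1 h replicate 4 (adjusted p up to 0.061), nor with the GC trend removed (0.57, 0.074).

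Stat3, the factor downstream of IL-6 and IL-10, peaked at 5 h and then came down in BMDM-WT. Its libraries in BMDM-WT gave 93.5, 82.6, 95 and 99 CPM before LPS, 101, 100, 94.1 and 91.1 CPM at 1 h, 609, 607, 668 and 618 CPM at 5 h and 276, 314, 294 and 295 CPM at 18 h. Its libraries in BMDM-Nur77-KO gave 87.8, 83.9, 85.1 and 88.1 CPM, 109, 89.2, 110 and 96 CPM, 415, 528, 558 and 562 CPM, and 477, 501, 492 and 417 CPM. At 5 h every knockout library was below the wild type and at 18 h every one was above it. By 5 h Stat3 rose 6.76-fold in BMDM-WT (log2 2.76 ± 0.09, adjusted p = 3.4e-22) and 5.98-fold in BMDM-Nur77-KO (2.58 ± 0.09, 1.7e-21). From 5 h to 18 h it fell 2.12-fold in BMDM-WT (-1.09 ± 0.08, 1.4e-12), while the change in the knockout was -0.13 ± 0.08 (0.17), or -0.34 (6.2e-06) with the GC trend removed, -0.17 (0.04) without the 3 libraries that stood apart by it and 0.0095 as adjusted p without BMDM-Nur77-KO 5 h replicate 1. At 1 h of LPS in the knockout Stat3 differed from 0 h by 0.23 ± 0.09 (0.09), and it passed with only those libraries (0.037). At 18 h the knockout was 1.6-fold higher (0.68 ± 0.08, 2.8e-07), and the response relative to 0 h was larger by 0.78 ± 0.12 (interaction, 3.3e-05). Both passed in the alternative fits, with adjusted p of at most 4.3e-04 and 1.5e-04, while neither reached the fold limit, a log2 value over 1. The difference at 5 h was -0.28 ± 0.08 (0.017) and was lost without BMDM-Nur77-KO 5 h replicate 1 or BMDM-WT 5 h replicate 3 (adjusted p up to 0.1), with the GC trend removed (-0.15, 0.062) and with only the 5 h libraries (0.18). Without the 3 libraries that stood apart by GC trend it passed (-0.19, 0.048).

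Stat5a and Stat5b, neighbouring genes for the factors of GM-CSF and IL-3 signalling, shared the peak at 5 h but not its size. Stat5a stood at 18.3, 17.4, 19.7 and 20.3 CPM in BMDM-WT before LPS, at 22.7, 23.1, 20.1 and 17.5 CPM at 1 h, at 249, 266, 263 and 252 CPM at 5 h and at 29.9, 27, 21.3 and 30.1 CPM at 18 h. In BMDM-Nur77-KO it stood at 18, 16.1, 16.3 and 20.6 CPM, 30.3, 25.4, 26.4 and 28.9 CPM, 205, 312, 327 and 330 CPM, and 42.5, 43.5, 45.5 and 38.3 CPM. The genotypes did not overlap at 1 h and 18 h, where the knockout was higher, and at 5 h only BMDM-Nur77-KO replicate 1 lay below the wild-type libraries. Stat5a rose 13.6-fold by 5 h in BMDM-WT (log2 3.77 ± 0.13, adjusted p = 1.9e-21) and 16.6-fold in BMDM-Nur77-KO (4.05 ± 0.13, 4.8e-22), and fell 9.51-fold and 6.91-fold from 5 h to 18 h. At 1 h it rose 1.57-fold in BMDM-Nur77-KO (0.65 ± 0.13, 3.1e-04), and the change in BMDM-WT was 0.15 ± 0.13 (0.44). The difference between these responses was 0.50 ± 0.18 with an adjusted p of 0.42, or 0.025 without the 3 libraries that stood apart by GC trend. None of these 3 is a 0 h or 1 h library, and without them calls over all genes in this interaction went from 8 to 489. At 18 h the knockout was 1.57-fold higher (0.65 ± 0.12, 1.8e-04; at most 0.0051 in the alternative fits) and its response relative to 0 h was larger by 0.74 ± 0.18 (interaction, 0.005; at most 0.015). At 1 h the genotypes differed by 0.41 ± 0.13 (0.046), which was lost without any of 7 of the 8 libraries, all but BMDM-WT replicate 2 (adjusted p up to 0.18). The difference at 5 h of 0.19 ± 0.11 (0.22) passed without BMDM-Nur77-KO 5 h replicate 1 (0.016), with the GC trend removed (0.36, 1.1e-04) and without the 3 libraries that stood apart by it (0.33, 0.0015).

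Stat5b read 46.8, 40.5, 54.9 and 50.1 CPM in BMDM-WT before LPS, 50.7, 48.8, 47 and 46.5 CPM at 1 h, 127, 127, 131 and 123 CPM at 5 h and 71.5, 67.5, 67.4 and 71.5 CPM at 18 h. In BMDM-Nur77-KO it read 43.9, 45, 47.9 and 48.9 CPM, 52.7, 48.9, 51 and 46.1 CPM, 81.4, 115, 128 and 131 CPM, and 75.8, 75.4, 72.1 and 54.9 CPM. The genotypes overlapped at each of the 4 times. Stat5b rose 2.64-fold by 5 h in BMDM-WT (log2 1.40 ± 0.11, adjusted p = 1.2e-12) and 2.45-fold in the knockout (1.30 ± 0.11, 7.4e-12), and was still 1.45-fold and 1.5-fold above 0 h at 18 h. The difference between genotypes had 95% intervals of -0.28 to 0.18 log2 units before LPS, -0.19 to 0.27 after 1 h, -0.38 to 0.07 after 5 h and -0.22 to 0.22 after 18 h, with adjusted p of 0.8, 0.92, 0.29 and 1. Exons of Stat3 and Stat5a, on opposite strands of chromosome 11, share up to 72 bases.

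Stat4, activated by IL-12 and interferon in lymphocytes and weakly expressed here, was counted with only 16 to 112 tags per library. An annotated gene on the same strand, Gm28177, shares up to 192 bases of exon with Stat4, and its part in these counts was not tested. The BMDM-WT libraries gave 4.58, 5.83, 4.09 and 3.92 CPM before LPS, 5.47, 6.05, 4.95 and 7.29 CPM at 1 h, 9.72, 8.51, 7.17 and 9.64 CPM at 5 h and 1.64, 1.52, 1.39 and 1.63 CPM at 18 h. Those of BMDM-Nur77-KO gave 2, 3.1, 3.07 and 3.98 CPM, 3.25, 3.76, 3.04 and 2.85 CPM, 5.4, 6.26, 5.14 and 3.81 CPM, and 1.96, 1.86, 1.95 and 2.11 CPM. The knockout lay wholly below the wild type at 1 h and 5 h, overlapped it before LPS and lay wholly above it at 18 h. Stat4 rose 1.88-fold by 5 h in BMDM-WT (log2 0.91 ± 0.16, adjusted p = 9.0e-06) and 1.69-fold in BMDM-Nur77-KO (0.75 ± 0.18, 3.5e-04), then fell 5.63-fold and 2.61-fold to 18 h. It was lower in the knockout by 1.52-fold before LPS (-0.60 ± 0.17, 0.019), 1.82-fold at 1 h (-0.87 ± 0.17, 9.3e-04) and 1.69-fold at 5 h (-0.76 ± 0.16, 0.0015), and at 18 h differed by 0.35 ± 0.22 (0.29). The call before LPS was lost without BMDM-Nur77-KO 0 h replicate 1 or BMDM-WT 0 h replicate 2 (adjusted p up to 0.1) and with only these libraries (0.056), and the call at 5 h with only the 5 h libraries (0.051). The fall over 18 h was smaller in the knockout (interaction 0.95 ± 0.28, 0.027), a call lost without BMDM-Nur77-KO 0 h replicate 1, BMDM-WT 0 h replicate 2 or BMDM-WT 18 h replicate 3 (adjusted p up to 0.071), and without the 3 libraries that stood apart by GC trend (0.075). Of the 10 T and NK cell markers, 3 stayed at 3 counts or fewer in every BMDM-WT library before LPS and 9 did in BMDM-Nur77-KO. Without Cd4 the list summed to 1.09 to 2.11 CPM in BMDM-WT and 0.19 to 0.461 CPM in BMDM-Nur77-KO before LPS, 1.74 to 2.06 and 0.399 to 0.451 CPM at 1 h, 1.88 to 3.28 and 0.0977 to 0.762 CPM at 5 h, and 3.04 to 4.3 and 0.892 to 1.86 CPM at 18 h. The sum without Cd4 was thus lower in the knockout at every time, also at 18 h, where Stat4 was not. Gzmb reached the highest level in it, up to 2.58 CPM. With Cd4 the list overlapped between the genotypes at every time. Before LPS it then summed to 13.8 to 22.6 CPM in BMDM-WT and 12.4 to 15.5 CPM in BMDM-Nur77-KO. At 18 h it summed to 20.1 to 22.7 and 16.2 to 22 CPM. The part of these markers in the Stat4 difference was not tested. In bulk RNA fewer cells of a type and less RNA per cell cannot be told apart.

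Stat6, the factor of IL-4 and IL-13 signalling, was the only gene of the 9 to fall at 5 h. In BMDM-WT it read 199, 191, 211 and 216 CPM before LPS, 204, 200, 200 and 199 CPM at 1 h, 147, 152, 155 and 136 CPM at 5 h and 220, 217, 202 and 228 CPM at 18 h. In BMDM-Nur77-KO it read 186, 182, 193 and 198 CPM, 221, 210, 201 and 203 CPM, 119, 139, 166 and 161 CPM, and 223, 227, 211 and 179 CPM. All 5 h libraries lay below all 0 h libraries of their genotype, and those at 18 h overlapped them. The fall was 1.38-fold in BMDM-WT (log2 -0.47 ± 0.08, adjusted p = 8.7e-06) and 1.3-fold in BMDM-Nur77-KO (-0.38 ± 0.08, 1.6e-04), and Stat6 came back by 0.55 ± 0.08 and 0.52 ± 0.08 from 5 h to 18 h. Between the genotypes Stat6 differed by -0.11, 0.06, -0.02 and -0.05 log2 units at 0, 1, 5 and 18 h, with adjusted p from 0.41 to 0.91 and intervals within -0.28 and 0.22. With the GC trend of each library removed the value at 5 h was 0.11 (adjusted p = 0.049). The fall from 0 h to 5 h was then smaller, at -0.22 (4.4e-05) in BMDM-WT and -0.10 (0.033) in BMDM-Nur77-KO. The level at 18 h then passed as higher than at 0 h, by 0.15 (0.0018) in BMDM-WT and 0.21 (5.5e-05) in BMDM-Nur77-KO.

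The summed markers of macrophages, dendritic cells and neutrophils also stood apart between the genotypes at 1 or more times, and those of erythroid cells stayed at 3 counts or fewer per gene in every library. The 7 macrophage markers summed to a lower level in BMDM-Nur77-KO at each time, with no overlap between the libraries, at 5432 to 6042 against 6057 to 7321 CPM before LPS, 6260 to 7135 against 7183 to 8048 CPM at 1 h, 5996 to 7460 against 8196 to 8772 CPM at 5 h and 6716 to 8053 against 9264 to 9424 CPM at 18 h. The 6 dendritic cell markers summed to 13.5 to 21.6 CPM in BMDM-Nur77-KO and 5.16 to 7.11 CPM in BMDM-WT at 18 h, where 5 of the 9 genes were higher in the knockout. Before LPS these sums were 1.55 to 2.53 CPM and 1.22 to 1.51 CPM, and at 1 h and 5 h they overlapped. Xcr1 and Clec9a gave most of the sum at 18 h, and Flt3 did not exceed 4 counts in any library. The 6 neutrophil markers summed to 23.9 to 28.9 CPM in BMDM-Nur77-KO and 17.7 to 23.3 CPM in BMDM-WT at 1 h. They overlapped before LPS (15 to 21 and 9.52 to 17.6 CPM), at 5 h and at 18 h. S100a8 and S100a9 lay between 3.95 and 19.7 CPM and between 4.89 and 16.2 CPM over all libraries. Ly6g and Elane did not exceed 2 counts. The part of these shifts in the differences of the 9 genes was not tested.

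The cytokines that engage the pathway were measured through a list of 17 ligand genes, of which 13 could be tested. All 13 were higher at 5 h of LPS in both genotypes, with medians of 4.91 and 5.87 log2 units, beside 30.1% of all genes in BMDM-WT and 32.2% in BMDM-Nur77-KO. A ligand silent before LPS could pass the filter on low values only through a group with LPS. This count and these medians were thus partly set by the filter. The counts between genotypes in this and the following lists stand beside shares of all genes of 12.7% before LPS, 6.53% at 1 h, 24.4% at 5 h and 21.7% at 18 h. Ifnb1, the ligand of the type I interferon receptor, had no count in any library before LPS and reached 20.4 ± 1.71 CPM at 1 h in BMDM-WT. Between the genotypes 0 ligands passed before LPS in edgeR (0 at an unadjusted p below 0.05) and in DESeq2, 4 were lower in the knockout at 1 h, 3 were higher and 2 lower at 5 h, and 9 were higher and 0 lower at 18 h (median 0.95). The 4 calls at 1 h became 2 without any of 7 of the 8 libraries, all but BMDM-WT replicate 3. The 5 at 5 h became 3 without BMDM-WT 5 h replicate 2 and with only the 5 h libraries. Il6 stood at 52 ± 9.2 CPM in the knockout and 4.1 ± 1.45 CPM in the wild type at 18 h (log2 3.66 ± 0.24, adjusted p = 2.2e-11), and Il12a at 3.63 ± 0.328 and 0.201 ± 0.0387 CPM (4.10 ± 0.34, 1.4e-09). The wild-type level of Il12a rests on very few tags, which limits the size given for its difference. Il10 was lower in the knockout at 1 h, at 122 ± 11.8 against 208 ± 25.1 CPM (-0.77 ± 0.11, 2.3e-05).

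Receptor chains showed no common direction between genotypes: of 22 tested, 5 were higher and 4 lower at 18 h, with a median of 0.01. Il15ra, which presents IL-15, stood at 156 ± 9.89 against 84.3 ± 8.97 CPM (0.89 ± 0.10, 2.3e-08). Before LPS 2 were higher and 5 lower, at 1 h 1 higher and 0 lower, and at 5 h 2 higher and 6 lower. The 7 calls before LPS became 3 without replicate 3 of either genotype or BMDM-WT replicate 4. They became 4 without BMDM-Nur77-KO replicate 1 or 2 or BMDM-WT replicate 1. With only the 5 h libraries the 8 calls at 5 h became 3. Il4ra, the chain that signals to Stat6, was lower in the knockout at 5 h, at 361 ± 81.7 against 640 ± 33.7 CPM (-0.83 ± 0.13, adjusted p = 3.0e-05), where Stat6 itself did not pass. Il12rb1, which signals through Tyk2 to Stat4, was lower in the knockout before LPS, at 0.373 ± 0.154 against 1.2 ± 0.139 CPM (-1.61 ± 0.45, 0.016). Both levels lie below those of Stat4 in the same groups and rest on few tags. LPS raised 14 chains and lowered 6 by 5 h in BMDM-WT, beside 30.1% of all genes higher and 40.1% lower. Il15ra (6.24) and Il13ra1 (3.76) were among the chains on the higher side.

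Of 18 inhibitors, 10 rose and 3 fell by 5 h in BMDM-WT, beside 70.1% of all genes called, 30.1% higher and 40.1% lower. The median of the list was 0.64 log2 units, beside -0.14 over all genes. Socs3, the feedback inhibitor of Stat3 signalling by IL-6, went from 1.11 ± 0.386 CPM before LPS to 1009 ± 14 CPM at 5 h in BMDM-WT (log2 9.79 ± 0.26, adjusted p = 3.1e-24). It was lower in the knockout at 5 h, at 686 ± 217 CPM (-0.56 ± 0.16, 0.015), and did not pass there with only the 5 h libraries. Between the genotypes 3 inhibitors were higher and 3 lower at 5 h, which became 3 calls without BMDM-Nur77-KO replicate 2 or BMDM-WT replicate 2 or 4, and 1 with only these libraries. At 18 h 4 were higher and 1 lower, or 3 in all without BMDM-Nur77-KO replicate 4 or BMDM-WT replicate 1 and 2 with only the 18 h libraries. With 21.7% of all genes called nothing is read from these counts. Usp18, which restrains the type I interferon receptor, stood at 814 ± 56.9 against 554 ± 29.2 CPM (0.55 ± 0.12, 8.5e-04), and the phosphatase gene Ptpn2 at 74 ± 22.5 against 43.5 ± 2.77 CPM (0.77 ± 0.19, 0.0036). Of the 8 partners, Irf9, which joins Stat2 in the interferon complex, was lower in the knockout before LPS, at 33.4 ± 2.59 against 41.4 ± 2.4 CPM (-0.31 ± 0.07, 0.003), as Stat2 was. Nmi and Stam2 were higher at 18 h, 1 of these 2 calls being lost without BMDM-WT 18 h replicate 1 or 4.

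Interferon-stimulated genes that Stat2 and Irf9 drive were followed through a list of 14. Before LPS 8 were lower in the knockout and 0 higher (median -0.57), and at 18 h 10 were higher and 0 lower (median 0.51), while at 5 h 2 were higher and 3 lower. The 8 calls before LPS became 5 without replicate 3 of either genotype. The 5 at 5 h became 1 without BMDM-Nur77-KO replicate 1 or with only these libraries, 2 without BMDM-Nur77-KO replicate 2 and 3 without BMDM-WT replicate 1, 2 or 3. Irf7, a factor of the interferon feedback loop, was at 11.2 ± 1.91 against 21.1 ± 3.91 CPM before LPS (-0.91 ± 0.14, 2.0e-05), and Ifit1, an antiviral RNA-binding protein, at 3111 ± 293 against 1902 ± 210 CPM at 18 h (0.71 ± 0.13, 6.9e-05). The interaction at 18 h passed for 11 of the 14, all on the higher side in the knockout, beside 9.43% of all genes (5.36% on the higher side). Of 8 genes described as Stat3 targets, 1 was higher and 4 were lower before LPS (median -0.33). At 1 h 1 was higher and 0 lower, at 5 h 1 was higher and 2 were lower, and at 18 h 3 were higher and 0 lower (median 0.30). The 5 calls before LPS became 1 without BMDM-Nur77-KO replicate 1 or 3, 2 without BMDM-WT replicate 1 or 4 and 3 without replicate 2 of either genotype. The 3 at 18 h became 7 with the GC trend removed. The 3 at 18 h were Etv3, Nfil3 and Pim1. Etv3, a repressor induced by IL-10, was also higher at each earlier time (0.83, 0.71 and 0.59 at 0, 1 and 5 h). Of 5 Stat5 targets 1, Pim1, was higher at 18 h, at 369 ± 25.9 against 251 ± 6.99 CPM (0.55 ± 0.06, 9.4e-08). Pim1 stands in both lists, so these counts are not separate. Il4ra and Socs3, listed above among receptors and inhibitors, are also Stat3 targets, and are the 2 that were lower at 5 h. Cish, Socs2 and Osm of the Stat5 targets stand among the inhibitors or ligands as well. Of 10 Stat6 targets tested, 2 were higher and 2 lower at 18 h, with a median of -0.09 beside -0.01 over all genes. The higher ones were Ccl22 (2.36 ± 0.16, 2.0e-12), a chemokine, and Klf4 (2.29 ± 0.13, 4.7e-14), a transcription factor. With a log2 difference over 1 required, 3 of the 4 calls were left, 1 of them on the lower side. Mrc1, the mannose receptor that IL-4 raises, went from 1097 ± 77.7 CPM before LPS to 60.8 ± 9.21 CPM at 18 h in BMDM-WT (-4.17 ± 0.14, 7.1e-22).

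The genes most like each member over the 32 libraries, by Pearson correlation of log2 CPM as a description, followed the members' courses. For Jak2 they were Ifih1 (0.998), Nt5c3 and Nampt (both 0.997), for Stat3 Arel1 (0.996) and Wars (0.994), and for Tyk2 Hk3 (0.993), Clcn7 (0.990) and Gtpbp2 (0.989). Stat2 was most like BC147527 (0.989), Psme2b (0.988) and Tor3a (0.986), Stat5a like Nfkb1 (0.990), Ext1 (0.989) and Mark2 (0.985), and Jak1 like Ankib1 (0.991), Aida and Prkx (both 0.987). For Stat5b they were Ube2z (0.986), Myo1g (0.985) and Myd88 (0.983), and the values were lowest for Stat6 (Lrch4 0.956, Fbxw4 0.955, Vac14 0.953) and Stat4 (Lsp1 0.915, Raet1e 0.913, Jpt2 0.907). The 32 points fall into 8 groups and share them for every gene.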

How the data were processed

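RNA-seq libraries of 32 samples were analysed from 1 table of estimated counts per RefSeq transcript, which the authors deposited. The authors had aligned the reads to mm10 with HISAT2 (version 2.1.0), filtered them by mapping quality and counted tags over transcripts with HOMER without further normalization; per the labels CASAVA 1.8.2 was used upstream, and whether the strand was used in counting is not given in the sources used here. A mate of a pair counted 0.5, so 28.6% of the deposited values were not whole, and the expected counts were rounded before testing. Of 42361 transcripts, 42203 were named through RefSeq (GRCm38.p6) and 65 through GENCODE M21; the 93 unnamed ones, 0.233% to 1.37% of the tags, were left out. The members and gene lists were chosen with earlier results of these data known. Genes with a mean above 1 RPKM in at least 1 group were tested with edgeR 4.0.16 (limma 3.58.1, R 4.3.3): TMM normalization, a model of 8 groups, quasi-likelihood F tests and adjustment after Benjamini and Hochberg across 11186 genes, a call being an adjusted p below 0.05. CPM uses the TMM-scaled library size, and log2 CPM a prior count of 2. Intervals of log2 fold changes are 95% intervals with 24 residual degrees of freedom. Alternatives were DESeq2 1.42.0, its size factors, filterByExpr or no filter, only the libraries compared, a replicate block, each library left out, a fold limit, transcripts summed and plain library totals. After seeing the data, 2 were added: removal of each library's trend with GC content (lowess, span 0.3, fitted to the deviation from the mean of all libraries, so that a trend shared by a group is removed too) and leaving out the library of steepest trend in each group where its slope exceeded 0.25 (3 libraries). The named genes are the 9 members, the 3 genes most correlated with each (1 of them is not reported here), and from each list up to 3 genes per comparison with the largest change among those called with no overlap between libraries; Ifnb1 is given by its levels. The edgeR step was tested on simulated data.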

Additional observations from a re-analysis of the deposited data

Results flagged for a closer look

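In 3 of the 72 groups of 4 libraries, 1 library stood apart from the other 3 by Dixon's test, and chance alone would mark about 1 in 20. Stat2 in BMDM-WT 18 h replicate 3 was at 1253 CPM with the others at 1329 to 1345 CPM (gap of 0.832 of the range). Jak2 in the same library was at 510 CPM with the others at 389 to 399 CPM (0.911). Stat5a in BMDM-Nur77-KO 5 h replicate 1 was at 205 CPM with the others at 312 to 330 CPM (0.860). Both libraries had the steepest GC trend of their group (slopes of -0.274 and -0.551), and its part in these values was not tested. The response to LPS differed between the genotypes, by the interaction term in edgeR, for Stat2 at 1 h (-1.37 in BMDM-WT and -0.71 in BMDM-Nur77-KO, difference 0.65, adjusted p = 0.015). At 18 h it differed for Stat2 (3.91 and 4.57, difference 0.66, adjusted p = 1.2e-04), Stat3 (1.67 and 2.45, 0.78, 3.3e-05), Stat4 (-1.58 and -0.63, 0.95, 0.027) and Stat5a (0.52 and 1.26, 0.74, 0.005).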

How the results depend on the processing

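Of 2646 values of the 9 genes under the alternatives, 2512 kept their side of the threshold, 85 lost a call and 47 gained one. Values that stayed uncalled could change sign, as Stat3 did between the genotypes at 0 h (-0.10, and 0.01 with the GC trend removed). The other 2 passed with the opposite sign, both with the GC trend removed and both for Stat6. They were 0.11 (adjusted p = 0.049) in BMDM-Nur77-KO against BMDM-WT at 5 h and 0.12 (0.036) at 1 h of LPS in BMDM-WT, each -0.02 otherwise. The cause was not tested. A required log2 fold change over 1 left 0 of the 9 genes in the comparisons between genotypes at 0, 1, 5 and 18 h, 1 and 0 at 1 h of LPS in BMDM-WT and BMDM-Nur77-KO, 5 and 5 at 18 h, 4 and 5 from 5 h to 18 h, 6 at 5 h in BMDM-Nur77-KO, and 0 in the interactions at 1 h and 18 h. Of all genes it left 1.56%, 1.11%, 2.27% and 3.83% between the genotypes. In the order of the other counts it left 5.1% and 4.51%, 27.4% and 32%, 30.1% and 28.6%, 32.6%, 0% and 2.35%. Only the libraries compared gave 3 genes between the genotypes at 0 h, 0 at 5 h (3 at an unadjusted p below 0.05 in edgeR; DESeq2 on all libraries called 3) and 3 at 18 h, and 4 at 1 h of LPS in BMDM-Nur77-KO. In the same order, calls over all genes with only the libraries compared were 2415, 404, 1610 and 1863, in place of 1417, 2730, 2424 and 1375. No filter gave 1 at 1 h between the genotypes, with 662 calls over all genes in place of 731. With the GC trend removed 5 and 5 genes were called at 1 h of LPS in BMDM-WT and BMDM-Nur77-KO, 0 in the interaction at 1 h (2 at an unadjusted p below 0.05) and 6 in that at 18 h. Calls over all genes were then 2428, 1817, 10 and 1623, in place of 2270, 1375, 8 and 1055. Without the 3 libraries that stood apart by GC trend 4 were called between genotypes at 0 h, 4 at 1 h of LPS in BMDM-Nur77-KO, 3 at 1 h in BMDM-WT, 3 in the interaction at 1 h and 1 in that at 5 h. Calls over all genes were 3285, 1991, 4134, 489 and 708 in this order, in place of 1417, 1375, 2270, 8 and 349. None of the 3 is a 0 h or 1 h library. At 0 h and 1 h the libraries compared thus stayed the same, and the spread estimated over all groups changed. Leaving out 1 library at a time gave 1 to 2 genes between the genotypes at 0 h and at 1 h, 2 to 4 at 5 h and 3 to 5 at 18 h, 2 to 3 at 1 h of LPS in either genotype, 7 to 8 from 5 h to 18 h in BMDM-Nur77-KO, and 0 to 1, 0 to 1 and 3 to 5 in the interactions at 1, 5 and 18 h. No pairing by replicate number was seen: same-numbered libraries correlated from -0.70 to 0.47, 29 of 112 pairs exceeded 0.1 and 2 of 32 libraries correlated best with their own number. These correlations also hold the GC trends of the libraries, so they cannot decide whether samples were paired. With the replicate number as a block 1 gene was called at 1 h between the genotypes in place of 2, Stat5a having an adjusted p of 0.069, and the counts in the other 14 comparisons were the same. Replicates differed by more than sampling noise in all 48 pairs (chi-square per degree of freedom 1.92 to 114). On plain library totals 55 of the 72 group levels moved by over 1 SD. Depth limits Stat4 most, at 16 to 112 counts.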
